A study of Mus musculus with 6 samples.

Results

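The genes described here are 10 nuclear genes through which mitochondria are known to be remodelled when oxygen is low. They were chosen by name from the 54532 genes counted in embryonic mouse hearts, with earlier results of these data known. They are the mitophagy receptors *Bnip3*, *Bnip3l* and *Fundc1*, the complex IV genes *Ndufa4*, *Ndufa4l2*, *Cox4i1* and *Cox4i2*, and the mitochondrial proteins *Higd1a*, *Lonp1* and *Fam162a*. RNA-seq was performed on 3 *Smyd1-KO* and 3 wild-type (WT) hearts at embryonic day 9.5 (E9.5) to ask how gene expression changes in the absence of SMYD1, a histone methyltransferase of striated muscle. The *Smyd1-KO* embryos were homozygous for a constitutive *Smyd1* null allele, carried by every cell, and the line descends from *Smyd1*+/- mice of the Jackson Laboratory. The WT hearts carried no engineered allele by their labels, no group was treated, and embryos of either sex were used. RNA came from individually extracted hearts, so the 3 hearts of a genotype are separate embryos, and *Smyd1-KO* embryos are known to die soon after this stage. Only RNA was measured: the data hold no oxygen level, protein amount or mitophagy activity.

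BNIP3, its relative NIX (encoded by *Bnip3l*) and FUNDC1 sit in the outer mitochondrial membrane and bind LC3-family proteins, which brings the mitochondrion into an autophagosome for degradation. Cytochrome *c* oxidase, complex IV of the respiratory chain, passes electrons to oxygen, and some of its subunits have a second version that is made at low oxygen: COX4I2 replaces COX4I1, with the protease LONP1 degrading COX4I1, and NDUFA4L2 is the low-oxygen relative of NDUFA4. Several of these genes, *Bnip3*, *Ndufa4l2*, *Cox4i2* and *Lonp1* among them, are textbook targets of hypoxia-inducible factors, which bind DNA at the core ACGTG or at the core GCGTG.

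The DNA before the start site is shown for the genes whose RefSeq start lay within 50 bases of an annotated GENCODE coding transcript start and had at most 50 of its upstream 250 bases in exons of the gene itself, because these windows differ in how often they hold the 2 cores. RefSeq promoters on GRCm38.p6 were matched for 6 of the 10 genes (*Bnip3*, *Fundc1*, *Ndufa4*, *Higd1a*, *Lonp1* and *Fam162a*), and 4 are printed. *Bnip3l*, *Ndufa4l2*, *Cox4i1* and *Cox4i2* had no entry in the table used. All 4 genes lie on the minus strand, each stretch runs 5′ to 3′ on that strand, annotated exons of any gene were cut off, and capitals mark these cores on either strand. The stretches are chr7:138909520-138909756 for *Bnip3*, chr17:56626904-56627153 for *Lonp1*, chr16:36071595-36071684 for *Fam162a* and chr6:11907498-11907700 for *Ndufa4*. For *Fam162a* the cut took 33 bases of its own exons and 127 of *Ccdc58*, which left 90, and the window of *Fundc1* held 105 bases of its own exons.
Bnip3: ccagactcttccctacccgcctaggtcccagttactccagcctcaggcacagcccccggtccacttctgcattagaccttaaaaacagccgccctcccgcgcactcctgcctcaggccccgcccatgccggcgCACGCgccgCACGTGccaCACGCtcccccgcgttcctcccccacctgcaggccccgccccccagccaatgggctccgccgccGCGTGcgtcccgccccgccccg
Lonp1: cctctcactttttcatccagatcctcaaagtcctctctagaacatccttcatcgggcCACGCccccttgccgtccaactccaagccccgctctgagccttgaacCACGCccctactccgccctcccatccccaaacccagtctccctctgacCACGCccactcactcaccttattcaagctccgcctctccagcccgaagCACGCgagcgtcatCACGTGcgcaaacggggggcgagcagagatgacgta
Fam162a: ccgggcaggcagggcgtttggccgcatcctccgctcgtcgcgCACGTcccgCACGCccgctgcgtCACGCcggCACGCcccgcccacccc
Ndufa4: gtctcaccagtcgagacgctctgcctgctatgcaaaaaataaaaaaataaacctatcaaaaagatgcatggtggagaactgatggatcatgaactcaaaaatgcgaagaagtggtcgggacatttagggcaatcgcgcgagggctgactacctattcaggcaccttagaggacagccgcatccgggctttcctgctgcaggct

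Counted over the whole 250 bases before the start site and on both strands, *Bnip3* held 5 matches, *Lonp1* held 6 and *Fam162a* held 6, of which 4 fall in the printed stretch. *Ndufa4* and *Fundc1* held 0 and *Higd1a* held 2. In *Bnip3* and in *Lonp1*, 2 of the matches are the same palindrome CACGTG read on either strand. Of 32851 mouse promoters, 38.6% held at least 1 match in a window of this length, 1.01% held 5 or more and 0.417% held 6 or more, while 6.02% held CACGTG. The 250-base windows of *Bnip3* and *Ndufa4* also differed in base composition, at 72.4% and 51.6% G or C, and each core holds a CpG. A match is a description of these letters and not a bound site, and a window without a match says nothing on distant elements. The start site used for *Higd1a* lay 183 bases from the nearest annotated coding start, and all 250 bases of its window lay in annotated exons of *Higd1a* itself.

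All levels are in CPM, the reads of a gene in every 1000000 reads of a heart after TMM scaling. A gene is called higher or lower where edgeR's quasi-likelihood test gave a Benjamini-Hochberg adjusted p below 0.05 over the 19372 genes tested and the log2 fold change was at least 0.5 in size. Total counts ran from 48627825 to 64217529 per heart. *Smyd1* itself was at 101, 222 and 206 CPM in the *Smyd1-KO* hearts and at 414, 379 and 269.8 CPM in the WT hearts, lower in every *Smyd1-KO* heart but not called (log2 fold change -1.01, adjusted p = 0.0973). The counts are per gene, so it cannot be seen whether these reads come from the deleted part.

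Of the 10 genes, 7 were called higher in *Smyd1-KO* hearts and 0 lower: *Ndufa4l2*, *Cox4i2*, *Bnip3*, *Fam162a*, *Bnip3l*, *Higd1a* and *Lonp1*. Over all genes tested, 4.28% were called, 2.86% higher and 1.42% lower. DESeq2 called 1747 genes in all, against 830 by edgeR. An unadjusted edgeR p below 0.05 was given to 4857 of the 19372 genes, the background for such counts below. The same 7 genes were higher in every *Smyd1-KO* heart than in any WT heart, which held for 15.9% of all genes tested, and 0 were lower in every *Smyd1-KO* heart, against 15.5% of all genes. *Fundc1*, *Ndufa4* and *Cox4i1* were not called. The median log2 fold change of the 10 was 0.97, against -0.0026 over all genes. Since *Bnip3*, *Bnip3l* and others were picked as known responders to low oxygen with earlier results of these data at hand, the counts describe the list and test nothing about it.

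**Figure D1:**
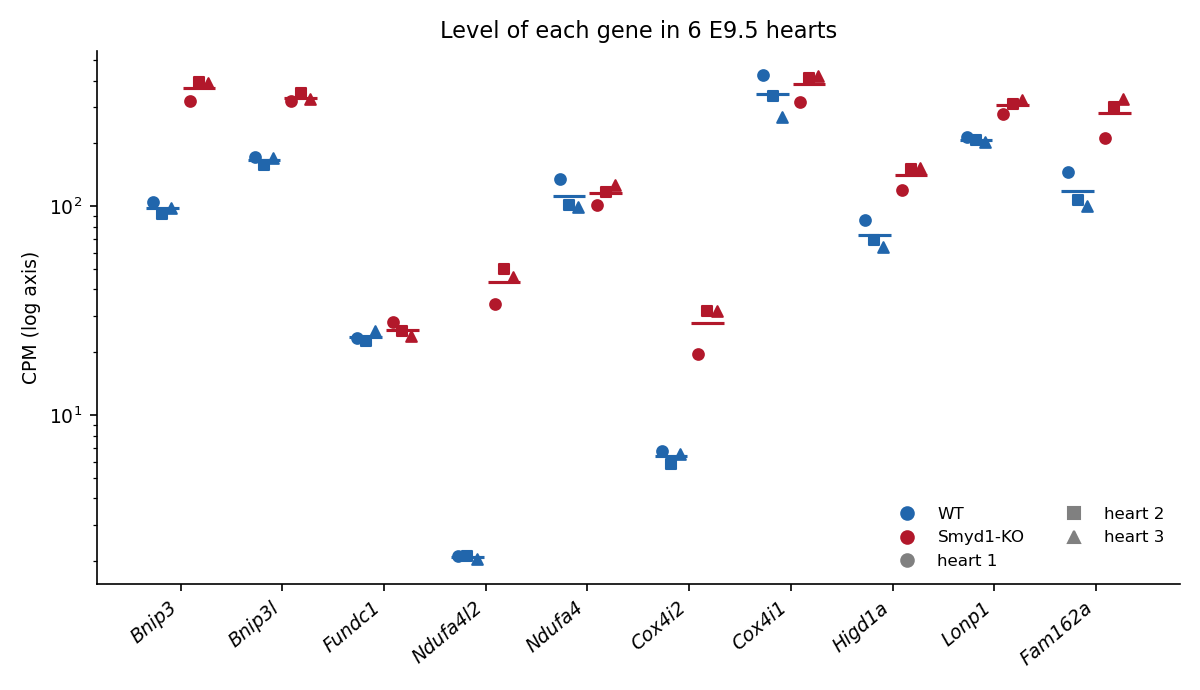
Level of each of the 10 genes in each heart, in CPM on a log axis, with WT hearts in blue, *Smyd1-KO* hearts in red, marker shapes for the heart number and a bar at the mean of 3 hearts. The genotypes are apart for 7 genes and overlap for *Fundc1*, *Ndufa4* and *Cox4i1*, and *Ndufa4l2* lies between 2.04 and 2.13 CPM in WT but between 34.0 and 50.4 CPM in *Smyd1-KO*.

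*Bnip3*, a mitophagy receptor that low oxygen induces (chr7:138890836-138909519, minus strand), was the receptor with the greatest change. It was at 320.2, 392 and 389 CPM in the *Smyd1-KO* hearts and at 105, 92.2 and 98.7 CPM in the WT hearts. The lowest *Smyd1-KO* heart stood far above the highest WT heart. The means differed 3.73-fold, and the log2 fold change was 1.90 ± 0.11 (SE), with an edgeR adjusted p of 0.000694.

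*Bnip3l* encodes NIX, the receptor that clears mitochondria from maturing red cells (chr14:66985239-67008877, minus strand). It was at 318, 347 and 327 CPM in the *Smyd1-KO* hearts and at 173, 158 and 171 CPM in the WT hearts. The 3 hearts of each genotype lay close together, with no overlap between the genotypes. The level was 1.98-fold higher, with a log2 fold change of 0.98 ± 0.0825 (SE) and an edgeR adjusted p of 0.00243. The summed level of 10 erythroid markers ran from 28.1 to 283 CPM in *Smyd1-KO* hearts and from 749.6 to 1002 CPM in WT hearts. Of these markers 9 were lower in every *Smyd1-KO* heart than in any WT heart, as were 15.5% of all genes tested. EdgeR called 3 of the markers lower (0 to 9 when a heart was left out), against 1.42% of all genes, and DESeq2 called 7. None of the 10 was at 0 in any heart, and the part of these cells in the *Bnip3l* level was not tested.

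*Fundc1*, the receptor whose activity is set mainly by phosphorylation (chrX:17556564-17572325, minus strand), showed no such difference. It was at 27.9, 25.3 and 23.9 CPM in the *Smyd1-KO* hearts and at 23.4, 22.7 and 25.2 CPM in the WT hearts. The genotypes overlapped. The log2 fold change was 0.12, with a 95% interval from -0.12 to 0.35 and an edgeR adjusted p of 0.515, so a change above 0.35 on this scale lies outside the interval. Its paralog *Fundc2* was at 60.9, 60.0 and 64.7 CPM against 50.7, 39.9 and 40.1 CPM and was called higher by a narrow margin (log2 fold change 0.51, edgeR adjusted p = 0.0462). That call held in 1 of the 6 fits that left out a heart.

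*Ndufa4l2*, on chr10:127514967-127517154 (plus strand), had the greatest change of the 10. Its product is thought to lower electron transport when oxygen is scarce. It was at 34.0, 50.4 and 45.8 CPM in the *Smyd1-KO* hearts and at 2.11, 2.13 and 2.04 CPM in the WT hearts, from 1654, 2979 and 2614 reads against 126, 135 and 136. The WT hearts were nearly equal, and the *Smyd1-KO* hearts spread more but stayed far above them. The means differed 20.7-fold, and the log2 fold change of 4.37 ± 0.176 (SE) had an edgeR adjusted p of 0.000126. Ranked by log2 fold change it was number 6 of 19372 genes, of which 13 had a value of 4 or more. At its end it shares 32 exonic bases with *Shmt2* on the opposite strand, which was also higher (205, 246 and 219 CPM against 109, 110.1 and 117 CPM, log2 fold change 0.99, edgeR adjusted p = 0.00365). The strand setting of the counting is not given in the sources used here, and the part of *Shmt2* reads in the *Ndufa4l2* level was not tested.

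*Ndufa4* encodes the subunit that NDUFA4L2 resembles, once assigned to complex I and now to complex IV (chr6:11900292-11907497, minus strand). It was at 102, 118 and 127 CPM in the *Smyd1-KO* hearts and at 135, 102 and 99.4 CPM in the WT hearts. The hearts of the genotypes were interleaved. The log2 fold change was 0.04, with a 95% interval from -0.29 to 0.38 and an edgeR adjusted p of 0.877, and its sign turned in 3 of the fits that left out a heart.

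*Cox4i2*, the low-oxygen and lung isoform of the regulatory subunit COX4 (chr2:152754173-152765037, plus strand), was the second of the low-oxygen isoforms to rise. It was at 19.6, 31.5 and 31.5 CPM in the *Smyd1-KO* hearts and at 6.71, 5.83 and 6.55 CPM in the WT hearts. *Smyd1-KO* heart 1 was below the other 2 but above all WT hearts. The means differed 4.33-fold, and the log2 fold change was 2.11 ± 0.203 (SE), with an edgeR adjusted p of 0.00406.

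*Cox4i1*, the isoform present in most tissues (chr8:120668222-120674207, plus strand), was among the most abundant of the 10 and did not pass the test. It was at 316, 412 and 421 CPM in the *Smyd1-KO* hearts and at 425, 338 and 269 CPM in the WT hearts. The ranges overlapped almost fully. The log2 fold change was 0.16, with a 95% interval from -0.28 to 0.59 and an edgeR adjusted p of 0.644, so a rise of the size called elsewhere is within this interval. *Cox4i1* shares 154 exonic bases, 9.9% of its exons, with *Emc8* on the opposite strand.

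*Cox4i2* and *Ndufa4l2* are known in other tissues as genes of pericytes and smooth muscle. The summed level of 11 markers of these cells ran from 1578 to 2613 CPM in *Smyd1-KO* hearts and from 1878 to 3163 CPM in WT hearts. *Acta2* alone made up most of each sum, at 1089 to 2055 CPM in *Smyd1-KO* and 1402 to 2546 CPM in WT. Against the WT mean, the sum was at -0.71 in *Smyd1-KO* heart 1 and -0.45 in WT heart 3 on the log2 scale. The summed cardiomyocyte markers described below were at -0.92 and -0.49 in these hearts, and all hearts stood in the same order for both sums. Whether the sum follows the amount of pericytes and smooth muscle was not tested. Of the markers 10 were tested, 5 with a positive and 5 with a negative log2 fold change, and the median was -0.08. By edgeR 0 were called and 2 had an unadjusted p below 0.05, and DESeq2 called 2 lower. None of the 11 was at 0 in any heart. *Kcnj8*, a defining marker of pericytes, was at 0.103, 0.271 and 0.543 CPM in the *Smyd1-KO* hearts and at 0.101, 0.0788 and 0.0601 CPM in the WT hearts. It was thus higher in every *Smyd1-KO* heart, but from only 5, 16 and 31 reads against 6, 5 and 4, and did not pass the filter. The part of these cells in the levels of *Cox4i2* and *Ndufa4l2* was not tested. In whole hearts, fewer cells of a type and less RNA per cell cannot be told apart, and the same holds for a rise.

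*Higd1a*, a hypoxia-inducible protein of the inner membrane that associates with the respiratory chain (chr9:121848563-121858362, minus strand), was at 119.9, 151 and 153 CPM in the *Smyd1-KO* hearts and at 85.9, 68.7 and 63.8 CPM in the WT hearts. The genotypes did not overlap. The means differed 1.94-fold, with a log2 fold change of 0.96 ± 0.144 (SE) and an edgeR adjusted p of 0.0164. The antisense gene *Gm47112* covers 22.5% of its exons and was at most at 0.355 CPM.

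*Lonp1*, the ATP-dependent protease of the mitochondrial matrix (chr17:56614297-56626887, minus strand), had the smallest of the called changes. It was at 278, 310.3 and 324 CPM in the *Smyd1-KO* hearts and at 214, 208 and 202 CPM in the WT hearts. The hearts of each genotype differed little, and the genotypes did not overlap. The log2 fold change of 0.55 ± 0.0882 (SE), a 1.46-fold difference, had an edgeR adjusted p of 0.0199 and lay just over the limit of 0.5.

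*Fam162a* encodes a mitochondrial protein that low oxygen induces and that has been tied to cell death (chr16:36043761-36071594, minus strand). It was at 212, 299 and 327 CPM in the *Smyd1-KO* hearts and at 145, 107 and 100.5 CPM in the WT hearts. The spread within each genotype was wider than for *Lonp1*, still without overlap. The log2 fold change was 1.25 ± 0.201 (SE), a 2.37-fold difference, with an edgeR adjusted p of 0.0198. *Wdr5b* on the opposite strand covers 19.8% of its exons and was at 3.33 to 3.85 CPM in *Smyd1-KO* and at 4.57 to 5.91 CPM in WT, which was not called.

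The calls were not equally firm. *Bnip3*, *Bnip3l*, *Ndufa4l2* and *Cox4i2* were called in all 6 fits that left out a heart. *Higd1a* was called in 3 of these fits, *Fam162a* in 2 and *Lonp1* in 2. The number of the 10 genes called fell from 7 to 4 without *Smyd1-KO* heart 2, without WT heart 2 or without WT heart 3, to 5 without *Smyd1-KO* heart 3, and stayed at 7 without heart 1 of either genotype.

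**Figure D2:**
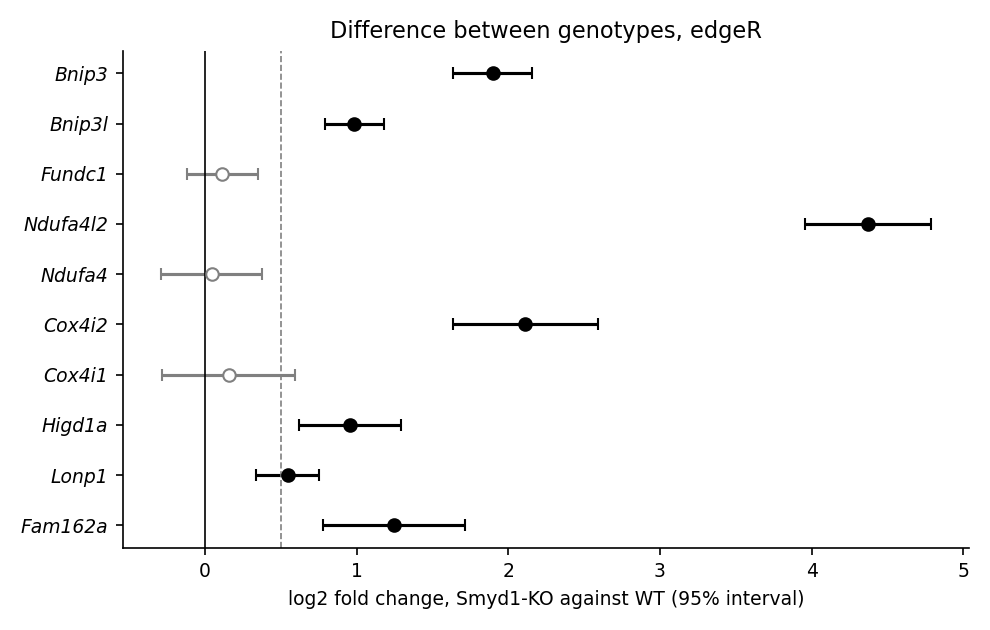
Log2 fold change of *Smyd1-KO* against WT for each gene from the edgeR fit, with its 95% interval, filled where called and open where not, and a dashed line at the limit of 0.5. The intervals of *Fundc1*, *Ndufa4* and *Cox4i1* span 0, and that of *Ndufa4l2* runs from 3.96 to 4.79.

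Within the 3 paralog pairs, *Ndufa4l2*, *Cox4i2* and *Bnip3* each made up a higher share of the RNA in every *Smyd1-KO* heart than in any WT heart. Each share was computed per heart from levels per kilobase of exon. *Ndufa4l2* made up 29.6%, 35.1% and 31.3% of *Ndufa4l2* plus *Ndufa4* in the *Smyd1-KO* hearts and 1.94%, 2.56% and 2.52% in the WT hearts. The means were 32.0% ± 2.8 (SD, n = 3) and 2.34% ± 0.35 (SD, n = 3). *Ndufa4l2* thus remained the smaller part of the pair in every heart.

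*Cox4i2* made up 10.9%, 13.1% and 12.8% of *Cox4i2* plus *Cox4i1* in the *Smyd1-KO* hearts and 3.01%, 3.28% and 4.57% in the WT hearts, with means of 12.3% ± 1.21 (SD, n = 3) and 3.62% ± 0.834 (SD, n = 3). *Cox4i1* stayed the main isoform in all 6 hearts, 6.64 to 8.20 times the level of *Cox4i2* per length in *Smyd1-KO* and 20.9 to 32.2 times in WT. *Bnip3* made up 63.2%, 65.8% and 66.9% of *Bnip3* plus *Bnip3l* in the *Smyd1-KO* hearts and 50.8%, 49.8% and 49.6% in the WT hearts. The receptors were near parity in WT, and *Bnip3* led in every *Smyd1-KO* heart.

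None of the 3 shares overlapped between the genotypes. Each gave p = 0.1 in a two-sided exact permutation test over the hearts, which is also the value adjusted over the 3 shares and the smallest that 3 hearts against 3 can give. With counts not divided by exon length, the difference in the *Cox4i2* share was 4.76 percentage points in place of 8.63. The shares are those of RNA, and the exon length joins all annotated transcripts of a gene, so a share depends on which transcripts the hearts use.

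**Figure D3:**
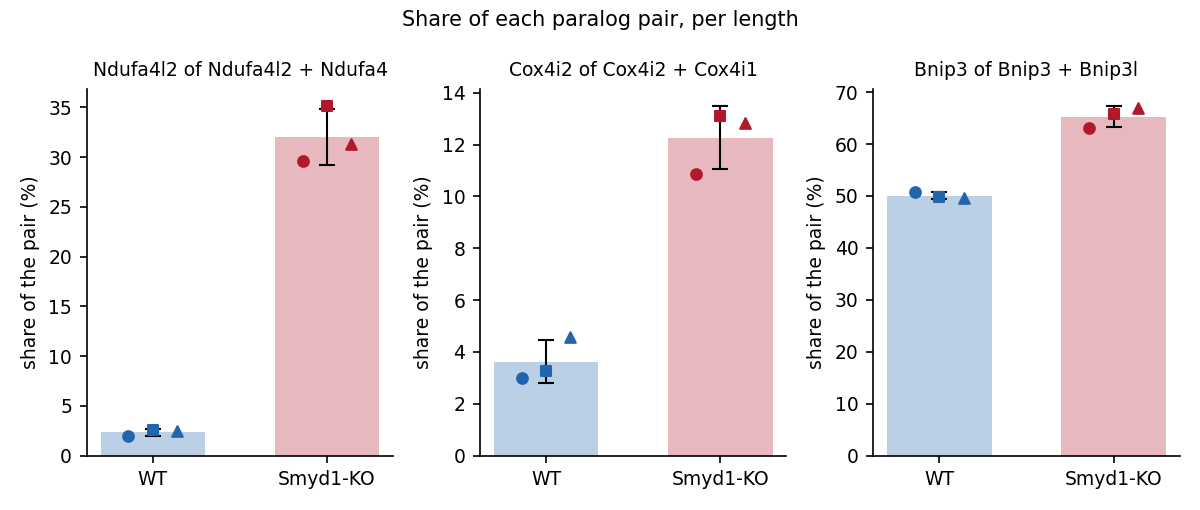
Share of *Ndufa4l2*, *Cox4i2* and *Bnip3* in the sum with their paralogs, in percent of the level per kilobase, with 1 point per heart, bars at the mean and error bars of 1 SD (n = 3). WT means are 2.34%, 3.62% and 50.1%, and *Smyd1-KO* means are 32.0%, 12.3% and 65.3%.

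Set in order of level per kilobase of exon, the WT hearts had *Cox4i1* at 222 CPM per kilobase, *Fam162a* at 139, *Ndufa4* at 81.2, *Lonp1* at 47.6, *Bnip3* at 43.5, *Bnip3l* at 43.4, *Higd1a* at 23.9, *Fundc1* at 10.1, *Cox4i2* at 8.07 and *Ndufa4l2* at 1.91 (means of 3 hearts). The neighbours *Lonp1* and *Bnip3*, and *Bnip3* and *Bnip3l*, overlapped between hearts, and the other neighbours did not. In *Smyd1-KO* hearts the order was *Fam162a* at 329 CPM per kilobase, *Cox4i1* at 247, *Bnip3* at 162, *Bnip3l* at 85.8, *Ndufa4* at 83.6, *Lonp1* at 69.5, *Higd1a* at 46.5, *Ndufa4l2* at 39.6, *Cox4i2* at 35.0 and *Fundc1* at 10.9. There the pairs *Fam162a* and *Cox4i1*, *Bnip3l* and *Ndufa4*, *Ndufa4* and *Lonp1*, *Higd1a* and *Ndufa4l2*, and *Ndufa4l2* and *Cox4i2* overlapped. Among all genes tested, the level of *Ndufa4l2* per kilobase was at percentile 42.5 in WT and 93.4 in *Smyd1-KO*, and that of *Cox4i2* at 69.2 and 92.3.

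The hearts of a genotype were not alike. *Smyd1-KO* heart 1 had the lowest level of that genotype for every one of the genes except *Fundc1*, for which it had the highest. It also had the lowest summed level of the 11 cardiomyocyte markers, 9476 CPM against 19385 and 19592 CPM, and among the WT hearts WT heart 3 was lowest for these markers (12725 CPM against 21198 and 19820 CPM) and for *Ndufa4*, *Ndufa4l2*, *Cox4i1*, *Higd1a*, *Lonp1* and *Fam162a*. The cardiomyocyte markers had 0 of 11 genes called by edgeR or DESeq2, 1 with an unadjusted p below 0.05 and a median log2 fold change of -0.12. Their part in the spread of *Cox4i1* and *Ndufa4* was not tested. Without *Smyd1-KO* heart 1 the log2 fold change of *Cox4i1* was 0.35 and its edgeR adjusted p was 0.271. Summed markers of macrophages stayed between 4.44 and 8.17 CPM, and those of endoderm and liver between 0.457 and 64.9 CPM, over the 6 hearts. Epicardial markers ran from 141 to 266 CPM in *Smyd1-KO* and from 106 to 129 CPM in WT, and endothelial markers from 706 to 1075 CPM and from 704 to 867 CPM. Of these 4 lists, edgeR called 0 genes, 7 had an unadjusted p below 0.05, and DESeq2 called 2 epicardial and 3 endothelial genes.

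**Figure D4:**
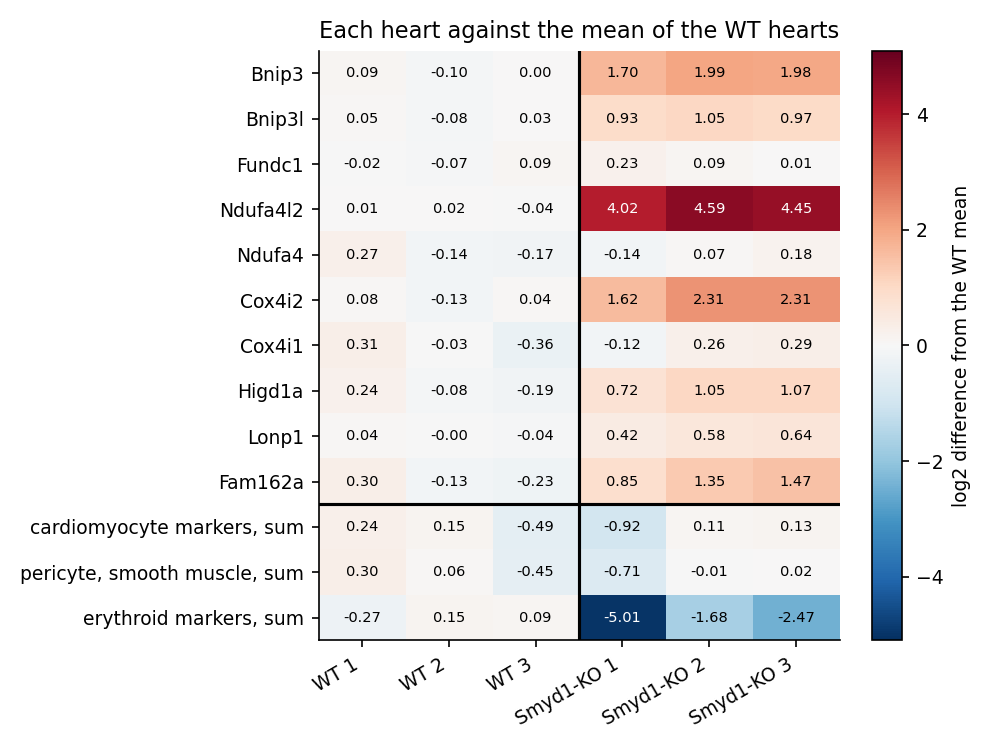
Log2 difference of each heart from the mean of the 3 WT hearts, for the 10 genes (above the line) and for the summed CPM of cardiomyocyte, pericyte with smooth muscle, and erythroid markers (below it). *Smyd1-KO* heart 1 is at -0.92 for cardiomyocyte markers and -5.01 for erythroid markers, and at 4.02 for *Ndufa4l2*, where the other *Smyd1-KO* hearts are at 4.59 and 4.45.

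The genes with the nearest profile over the 6 hearts were found by the root mean square difference of log2 CPM, each gene centred on its own mean, among the 13050 genes whose log2 CPM averaged 1 or more. For *Bnip3* these were *Ero1l* (0.0800), an oxidase of the endoplasmic reticulum, *Pde4b* (0.105), a cyclic AMP phosphodiesterase, and *Egln1* (0.113), an oxygen-sensing prolyl hydroxylase. For *Ndufa4l2* the nearest were less close: *Chac1* (0.363), *Ier3* (0.380) and *Nrn1* (0.452). For *Cox4i2* they were the nuclear receptor gene *Rora* (0.159), *Bnip3* itself (0.162) and the collagen prolyl hydroxylase gene *P4ha2* (0.171). This distance depends strongly on the size of the genotype difference. *Rora*, *Bnip3* and *P4ha2* had log2 fold changes of 2.12, 1.90 and 2.37, near the 2.11 of *Cox4i2*. Whether genes with near profiles share regulation was not tested.

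Few other mitophagy genes passed the test. Of 24 listed, 23 were tested, and 2 were called higher and 0 lower, 8.70% against 2.86% higher over all genes, with a median log2 fold change of 0.12. At an unadjusted p below 0.05, 6 were higher and 3 lower, while 4857 of all 19372 genes tested were below it in either direction. *Gabarapl1*, an LC3-family protein that the receptors bind, was at 44.6, 38.8 and 36.6 CPM against 28.4, 23.1 and 25.3 CPM (log2 fold change 0.64, edgeR adjusted p = 0.0281). *Pink1*, the kinase that marks damaged mitochondria, was at 27.9, 33.8 and 33.5 CPM against 22.3, 21.9 and 17.0 CPM (log2 fold change 0.64, edgeR adjusted p = 0.0456). Both were higher in every *Smyd1-KO* heart, and their calls held in 2 and 1 of the 6 fits that left out a heart. *Ulk1*, a kinase that starts autophagy, named after its values were seen, was at 62.8, 61.0 and 62.5 CPM against 74.1, 93.7 and 93.0 CPM. It was lower in every *Smyd1-KO* heart (log2 fold change -0.49, edgeR adjusted p = 0.0425) but under the limit of 0.5, and it was called lower without WT heart 1.

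No other nuclear gene of complex IV was called by edgeR, and that holds for its assembly factors too. Of 13 other nuclear subunits tested, 1 had an unadjusted p below 0.05 and the median log2 fold change was 0.05. The smallest p was that of the testis isoform *Cox6b2*, at 6.01, 6.73 and 6.62 CPM against 4.46, 3.67 and 4.50 CPM (log2 fold change 0.62, edgeR adjusted p = 0.0706), for which DESeq2 gave an adjusted p of 0.0058 and its only call among them. Of 19 assembly factors, edgeR and DESeq2 called 0, and 3 had an unadjusted p below 0.05. *Coa7* had the smallest p among them (log2 fold change -0.25, edgeR adjusted p = 0.10).

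The mitochondrial genome encodes the catalytic core of complex IV, and its 3 genes were lower in every *Smyd1-KO* heart than in any WT heart, as were 15.5% of all genes tested. The most abundant, *mt-Co1*, was at 3248, 2918 and 2691 CPM against 5149, 4222 and 4247 CPM and was called lower (log2 fold change -0.62, edgeR adjusted p = 0.0383), a call held in 1 of the 6 fits that left out a heart. *mt-Co2* and *mt-Co3* had log2 fold changes of -0.62 and -0.47 and were not called. Poly A selection and nuclear copies of mitochondrial DNA, which take up reads shared with these genes, make their levels uncertain.

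Of 13 other mitochondrial proteases tested, edgeR called 0 and DESeq2 called 1 higher, and 2 had an unadjusted p below 0.05, 1 in each direction. The higher was *Immp2l*, a signal peptidase subunit named after its values were seen, which DESeq2 called (log2 fold change 0.86, edgeR adjusted p = 0.111). *Parl*, the rhomboid protease that cleaves PINK1, had the smallest p (log2 fold change -0.31, edgeR adjusted p = 0.0615). Of 12 fission and fusion genes, edgeR called 0 and DESeq2 called 1 lower, and 2 had an unadjusted p below 0.05, both lower, with the smallest for *Mtfr1l* (log2 fold change -0.51, edgeR adjusted p = 0.0543). The paralogs *Higd2a* and *Lonp2* had log2 fold changes of 0.12 and 0.10 and were not called. *Higd1b*, *Higd1c* and *Fam162b* were at most at 0.158 CPM and were not tested.

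Genes known to respond to low oxygen outside the respiratory chain were higher as well. All 21 listed were called higher, against 2.86% of all genes tested, with log2 fold changes from 0.62 to 3.82 and a median of 1.44. Since these were listed with earlier results known, the count is no independent evidence. They fell to 11 without WT heart 2. The greatest changes were those of *Ndrg1* (3.82), *Ddit4* (2.99), *Bhlhe40* (2.84) and *Egln3* (2.51), and each of these was called in all 6 fits that left out a heart. *Bnip3*, *Bnip3l*, *Cox4i2*, *Higd1a* and *Fam162a* lay inside the range of this list, *Ndufa4l2* above it, and *Lonp1*, *Fundc1*, *Ndufa4* and *Cox4i1* below it.

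**Figure D5:**
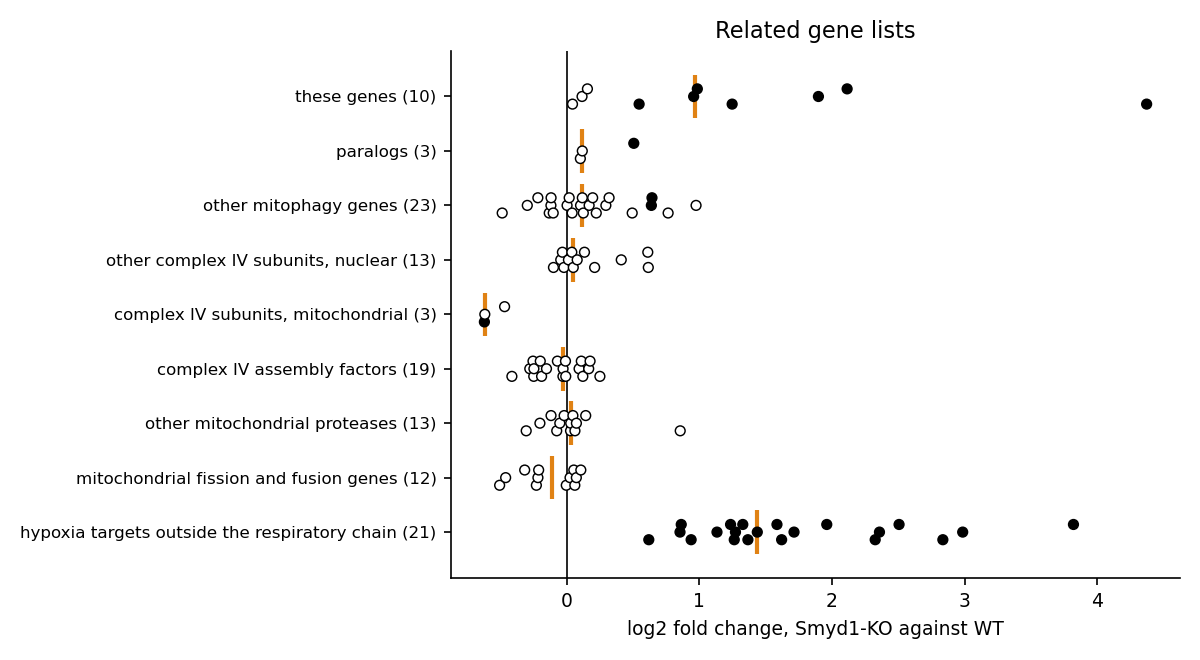
Log2 fold change of *Smyd1-KO* against WT for each tested gene (points, filled where called) of the 10 genes and of 8 related lists, with the number tested in brackets and an orange bar at the list's median. The medians are 0.97 for the 10 genes and 1.44 for the hypoxia targets, and between -0.62 and 0.12 for the other 7 lists.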

How the data were processed

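RNA-seq of E9.5 hearts was analysed for 3 *Smyd1-KO* and 3 WT hearts, grouped by the genotype in the labels. The authors selected poly A RNA, sequenced 75-base paired-end reads and aligned them to mm10 with STAR in bcbio-nextgen. The counting tool, annotation release and strand setting are not given in the sources used here. The authors deposited raw read counts per gene and a normalized signal per gene, the counts divided by 1 DESeq2 size factor per heart. Paralog shares were also computed from the normalized signal, but a share within a heart is unchanged by such a factor. The number of columns without a mapped sample was 0.

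Genes were filtered with filterByExpr, scaled by TMM and tested with glmQLFit and glmQLFTest of edgeR 4.0.16 (R 4.3.3), with Benjamini-Hochberg adjustment over 19372 genes. SE was the log2 fold change divided by the square root of F. Fitting code was tested on simulated data. Total counts of 48627825 to 64217529 per heart limit the precision of low genes. The edgeR p-values set the genotype difference against a spread estimated from 3 hearts per genotype, with information shared between genes. Paralog shares were compared by exact permutation. Gene positions, exon lengths and overlaps came from GENCODE vM21 (GRCm38), which holds 54495 of the genes. Overlap on the opposite strand was found for *Bnip3* (*Gm45507*, 504 bases, 0 counts in all hearts), *Ndufa4l2*, *Cox4i1*, *Higd1a* and *Fam162a*. Alternatives were DESeq2 1.42.0, RLE scaling, no filter, at least 10 counts in every heart, omission of mitochondrially encoded and haemoglobin genes, a replicate block, omission of each heart, and no fold limit.

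The 10 genes and all lists were chosen with earlier results of these data known. The text names the 10 genes, their 6 paralogs, at most 4 called genes per list by size of change (or the gene with the smallest p), the 3 nearest profiles of *Bnip3*, *Ndufa4l2* and *Cox4i2*, and *Smyd1*. Overlapping genes, markers, *Ulk1* and *Immp2l* were named in addition, after their values were seen.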

Additional observations from a re-analysis of the deposited data

How the results depend on the processing

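The number of the 10 genes called higher was 7 with DESeq2, RLE scaling, no filter, the stricter filter, without mitochondrially encoded and haemoglobin genes, and without a fold limit, and 4 to 7 when a heart was left out. The number of all genes called was 830, against 1747 with DESeq2, 59 with the replicate block and 97 to 1256 when a heart was left out. The hypoxia list had 21 genes called, 10 with the replicate block and 11 to 21 when a heart was left out. With the replicate block 2 of the 10 genes were called, *Bnip3* (adjusted p = 0.0279) and *Ndufa4l2* (adjusted p = 0.0163), while the other 5 had adjusted p from 0.0576 to 0.127. The labels do not say that the replicate numbers pair the hearts. Deviations of same-numbered hearts from their genotype means had correlations of -0.216, -0.054 and -0.182. Hearts of different number had correlations from -0.156 to 0.286. These values cannot exclude a shared litter or batch. The log2 fold change of *Ndufa4*, 0.04, turned to -0.028 without *Smyd1-KO* heart 3, -0.021 without WT heart 2 and -0.033 without WT heart 3, with a range of -0.033 to 0.21 over the hearts left out, and that of *Higd2a*, 0.12, to -0.012 without WT heart 3 (range -0.012 to 0.25). The share differences kept their direction in every alternative run, but these runs could not have turned it. A share within a heart does not change with a scaling factor of that heart. The shares did not overlap between the genotypes, so leaving out a heart cannot reverse the difference. The alternatives for the related lists and the other named genes were chosen after seeing the data. The cause of these shifts was not tested. *Ndufa4l2* in WT rests on 126 to 136 reads per heart, and genes near 0 could not be tested.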
